A study of Mus musculus with 6 samples.

Results

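The Hippo pathway genes Yap1, Wwtr1, Lats1 and Lats2, the transcription factor genes Tead1 to Tead4, and the matricellular genes Ccn1 (also called Cyr61) and Ccn2 (also called Ctgf) were examined in heart ventricles of skNAC knockout and wild-type mouse embryos. All probe sets that the platform annotation gives to 1 of these 10 symbols alone were taken, which were 24 of the 45101 probe sets and 10 of the 18194 symbols on the array. The set was chosen by the differences in signal between the genotypes on these same arrays, where Ccn2 had already stood out. Differences between the genotypes in these 10 genes are therefore a description, with no test.

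Ventricles of 129SvEv embryos at E11.5 were profiled on 6 Affymetrix GeneChip arrays of the mouse genome, 3 from embryos in which skNAC had been deleted by gene targeting and 3 from wild-type littermates. skNAC is the long, muscle-specific product of the Naca gene, and the labels place the lethality of the knockout, with cardiac defects, by E12.5. The arrays are called knockout 1, 26 and 66 and wild-type 13, 23 and 57, after the titles. The labels do not say whether an array held 1 heart or several, or which embryos shared a litter, so the errors measure the spread between these samples, which may be partly technical.

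The Hippo pathway is a kinase cascade that restrains organ growth. The kinases LATS1 and LATS2 phosphorylate the coactivators YAP (Yap1) and TAZ (Wwtr1), which are then held in the cytoplasm or degraded. Unphosphorylated YAP and TAZ enter the nucleus and bind TEAD factors, which contact DNA through the TEA domain and drive growth genes, among them Ccn1 and Ccn2. In the embryonic heart the pathway is known for its control of cardiomyocyte number. Its activity is set largely by phosphorylation and location of the proteins, which a transcript array does not measure.

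Values are MAS5 signals, the linear intensities that the authors' software gives for a probe set. The arrays had been scaled to a common 2% trimmed mean of 250, with medians from 92.0 to 114. Knockout 66 stood apart, with Pearson correlations of 0.924 to 0.936 to the other arrays across kept probe sets, while the highest correlation of each other array lay between 0.963 and 0.969. The targeted gene did not separate the genotypes downward. Naca read 9047, 9034 and 8595 in knockout 1, 26 and 66, against 8385, 8566 and 8286 in wild-type 13, 23 and 57 on its brighter probe set, and no source used here says if either of its 2 probe sets lies in the deleted part. All 5 ventricular markers were kept, and so were 3 of the 4 atrial markers. The ventricular factor Irx4 read 332 ± 2.30 in knockout and 349 ± 59.3 in wild-type (SD, n = 3). The ventricular myosin light chain Myl2 read 22206 ± 2883 against 18772 ± 526, higher in all knockout arrays. Its log2 difference of 0.23 turned to -0.02 after quantile normalization. The atrial light chain Myl7 read 14686 ± 817 against 13601 ± 391. Xist, the RNA of the inactive X chromosome, read 466 in wild-type 57 and 6275 to 7481 in the other arrays. The Y-linked Eif2s3y read 638 in wild-type 57, 166 and 213 in knockout 1 and 66, and 2.10 to 43.8 in the rest, so sex-linked signals differed between arrays within both genotypes. Knockout 1 and 66 thus gave Xist and Y-linked signal together. Y-linked Kdm5d read 208 and 295 there, against 55.7 to 93.5 in knockout 26 and wild-type 13 and 23. Whether these arrays held RNA of both sexes was not tested.

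Of the 10 genes, the CCN pair read lower in the knockout ventricles and the pathway components lay close to their wild-type signals on their brightest probe sets. Ccn2 had a mean signal of 563 in knockout and 918 in wild-type, 61.3% of the wild-type mean, and each of the 4 Ccn1 probe sets had a knockout mean between 58.4% and 79.2% of wild-type. On the brightest probe sets, Yap1, Wwtr1, Tead1, Tead2 and Lats1 had knockout means between 92.3% and 97.3% of wild-type, while Tead3 and Lats2 had 117% and 118%. Tead4 had no probe set above the signal filter.

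The filter kept probe sets whose mean over the 6 arrays was above 100.3, the median of all probe sets that are not array controls. It kept 22518 probe sets in all and 18 of the 24 described here, from 9 of the 10 genes. Differences are of log2(signal + 16), knockout minus wild-type, with the standard error from limma, a linear model fitted to all kept probe sets, and they understate the change of dim probe sets. At an adjusted p under 0.05 (limma, Benjamini-Hochberg), 0 of 22518 kept probe sets passed, a share of 0%, and 1091 had an unadjusted p under 0.05. Of the 18 kept probe sets, 14 were below 0 and 4 above, with a median of -0.17, against a median of -0.01 and 51.8% below 0 over all kept probe sets. Among the 13 that are not CCN genes, 9 were below 0 and 4 above, with a median of -0.09. Ccn1 1442340_x_at and Wwtr1 1437155_a_at had knockout means of 83.1 and 88.7, under the filter. They were kept through their wild-type means of 142 and 120, and no probe set of the 10 genes was kept the other way round. The genes were also chosen with this contrast in view, so nothing is read from these counts. All 18 kept their sign after quantile normalization and after centring on array medians.

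**Figure D1:**
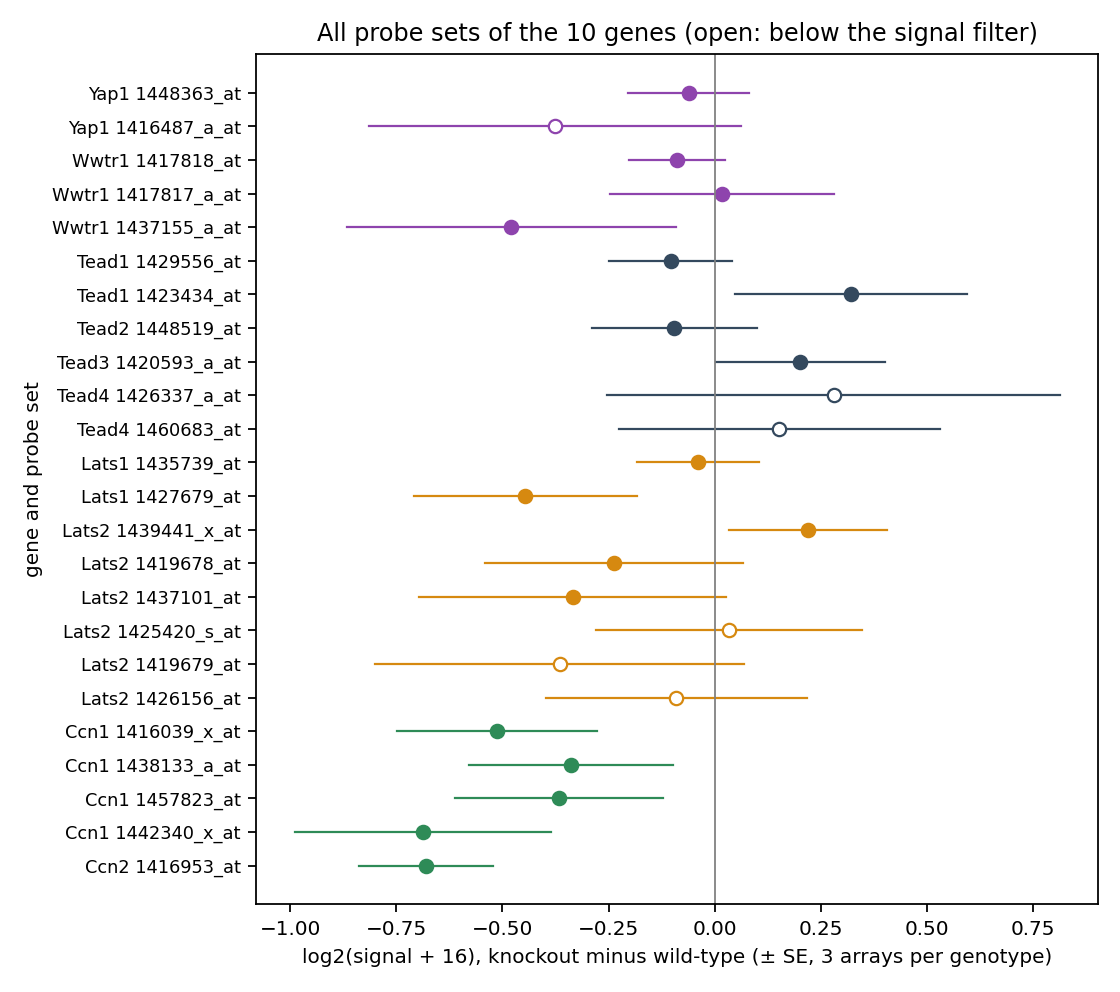
Difference in log2(signal + 16), knockout minus wild-type, for all 24 probe sets of the 10 genes. Points are the fitted difference and lines ± 1 SE (3 arrays per genotype), and open points are the 6 probe sets below the signal filter. All 5 CCN probe sets lie left of 0, between -0.69 and -0.34, while those of Yap1, Wwtr1, the TEAD genes and the LATS kinases lie on both sides.

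Every knockout array was below every wild-type array in 4 of the 18 kept probe sets: the Ccn2 probe set, 2 of Ccn1 and 1 of Lats1. None of the 18 had all knockout arrays above all wild-type arrays. Over all kept probe sets the share was 5.56% in the lower direction and 4.96% in the higher direction. The genes were chosen with this contrast in view, so nothing is read from the count. Without wild-type 57 the count was 7 of 17, where the share over all kept probe sets was 9.97%.

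Ccn2 encodes a secreted CCN protein that binds matrix, integrins and growth factors, and it is among the best known targets of YAP and TEAD. Its 1 probe set, 1416953_at, read 534, 523 and 632 in knockout 1, 26 and 66. In wild-type 13, 23 and 57 it read 1116, 857 and 783. The highest knockout array thus lay below the lowest wild-type array, and the spread was wider in wild-type (SD 175) than in knockout (SD 60.1). The log2 difference was -0.68 ± 0.16 (SE), and the ratio of wild-type to knockout means was 1.63. Leaving out each array in turn gave -0.79 to -0.53, the smallest difference without wild-type 13, the array with the highest signal. Fewer cells that express the gene and less RNA per cell cannot be told apart in such bulk ventricle RNA.

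Measures of RNA quality and of cell type markers are given here beside Ccn2. The 3' to 5' signal ratio of the actin control, a sign of RNA length, was 2.49 to 2.57 in knockout and 2.05 to 2.24 in wild-type, and that of Gapdh was 1.28 to 1.45 against 1.12 to 1.20, neither overlapping between genotypes. Of the 12 markers of cushion mesenchyme, neural crest and fibroblasts, all were kept and 10 were below 0, with a median of -0.26, while 0 passed the adjusted p of limma in the main processing. Their summed signal was 11457 to 14318 in knockout and 13652 to 14252 in wild-type, which overlapped. The 2 above 0 were Pdgfra at 0.14 and Sox9 at 0.00. Prrx1 at -0.02 and Col3a1 at -0.03 lay near 0, and Prrx1 turned to 0.02 after quantile normalization. By smallest p in that list, Snai2, a transcription factor of mesenchymal cells, stood at -0.76 ± 0.24. The collagen gene Col1a1 stood at -0.51 ± 0.13, and the mural cell receptor Pdgfrb at -0.47 ± 0.17. Knockout 66 differed from the other knockout arrays in this list: the mean log2 deviation of the 12 markers from the average of the 6 arrays was 0.01 there, -0.18 in knockout 1 and -0.28 in knockout 26, against 0.09 to 0.18 in wild-type. Ccn2 read 632 in knockout 66, the highest of the knockout arrays, and without that array its difference was -0.76. The part of RNA quality and of cell composition in the Ccn2 difference was not tested.

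Summed signals of the markers of heart muscle, endothelium and epicardium overlapped between the genotypes, and those of smooth muscle and of platelets with macrophages did not. Endothelial and endocardial markers summed to 5656 to 6090 in knockout and 5527 to 6002 in wild-type, with 6 of 9 above 0 and a median of 0.08. Epicardial markers summed to 5099 to 6113 against 4951 to 5486, with 4 of 8 above 0 and a median of 0.03. Among them Krt8, a keratin gene of simple epithelia, had signals of 1095, 1621 and 1056 in knockout 1, 26 and 66, against 603, 787 and 729 in wild-type 13, 23 and 57. Its genotypes did not overlap, with a difference of 0.80 ± 0.17, and its 3 kept probe sets all stood above 0, from 0.25 to 0.80. Cardiomyocyte markers summed to 66374 to 71427 against 63641 to 72134, with a median of 0.02 over 8 that turned to -0.10 after quantile normalization. The 3 kept atrial markers had a median of -0.26 and the 5 ventricular markers -0.06. Smooth muscle markers summed to 20043 to 22365 against 17140 to 19269, with Acta2, the smooth muscle actin that embryonic cardiomyocytes also express, at 0.27 ± 0.08, or 0.11 after quantile normalization. Acta2 alone read 15804 to 17884 in knockout and 13247 to 14618 in wild-type, the larger part of each sum. Of the 3 kept smooth muscle markers 2 were above 0 and 1 below, Cnn1 at -0.19 ± 0.15. The median of the smooth muscle list was 0.08, and 0.04 after quantile normalization. Platelet and macrophage markers summed to 1941 to 2117 against 2177 to 2607, with all 4 kept markers below 0. The chemokine gene Ppbp stood at -0.56 ± 0.13 and Csf1r at -0.22 ± 0.14. Pf4 at -0.04 ± 0.13 and Itga2b at -0.01 ± 0.24 lay near 0, and Itga2b turned to just above 0 after quantile normalization. The part of these markers in the Ccn2 difference was not tested. No marker of these lists passed the adjusted p of limma in the main processing. Krt8 passed with array quality weights (1.00, limma adjusted p = 0.0447), and Postn, of the mesenchyme list, without knockout 66 (-1.04, limma adjusted p = 0.0318).

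Ccn1 encodes another secreted, matrix-associated CCN protein, whose transcript is known to respond to YAP, serum and stretch. Its 4 probe sets were all kept and all below 0. The brightest, 1416039_x_at, read 262, 364 and 173 in knockout 1, 26 and 66, against 401, 392 and 326 in wild-type 13, 23 and 57. The groups overlapped because knockout 26 lay above wild-type 57, and the difference was -0.51 ± 0.24, or -0.25 without knockout 66. The probe set 1438133_a_at read 104, 149 and 188 against 170, 198 and 189 in the same order of arrays. There knockout 66 was level with wild-type 57 and knockout 1 was the lowest array, with a difference of -0.34 ± 0.24, or -0.13 without knockout 1 and -0.52 without knockout 66.

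The other 2 Ccn1 probe sets were dimmer and did not overlap between genotypes. Per the platform annotation both were designed from the same database sequence, so they are not independent of each other. The probe set 1457823_at read 108, 122 and 103 in knockout and 135, 135 and 175 in wild-type (-0.37 ± 0.25), and 1442340_x_at read 62.0, 107 and 80.3 against 154, 114 and 159 (-0.69 ± 0.30). In both, wild-type 57 was the highest array, whereas in the brightest Ccn1 probe set it was the lowest wild-type array. The probe sets of Ccn1 thus shared their sign but not the order of arrays. Names ending in _x_at mark probe sets whose probes can also match other sequences, which applies to 1416039_x_at and 1442340_x_at.

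**Figure D2:**
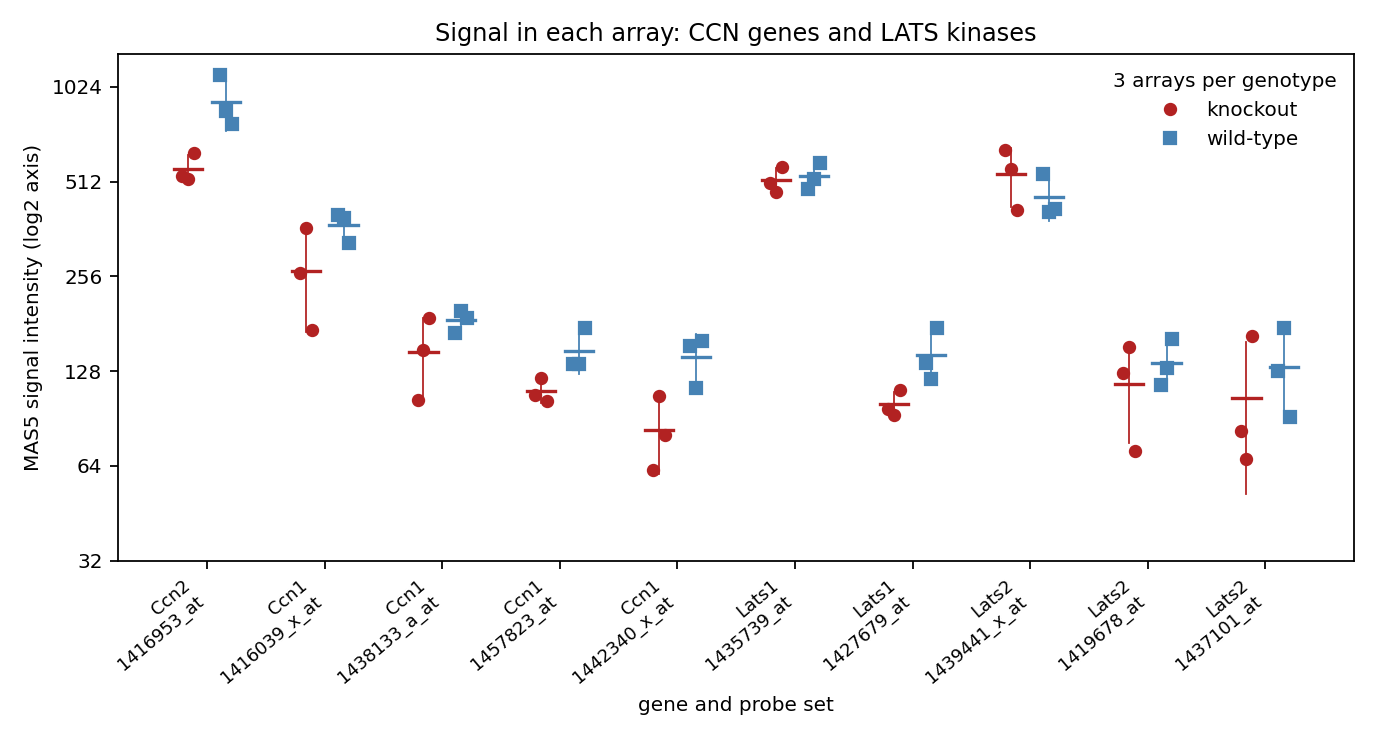
MAS5 signal in each array for the kept probe sets of Ccn2, Ccn1, Lats1 and Lats2, on a log2 axis. Circles are knockout and squares wild-type arrays, horizontal bars are means and vertical lines ± 1 SD (n = 3). For Ccn2 the knockout arrays sit at 523 to 632, below the wild-type arrays at 783 to 1116, while the brightest Lats1 and Lats2 probe sets overlap between genotypes.

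The Ccn1 promoter is shown because it holds the letters of a TEAD motif and Ccn1 is a known target of these factors. The motif searched was GGAATG on either strand, whose reverse complement is CATTCC, and overlapping matches were counted. Sequences are from RefSeq on build GRCm38.p6 and run from 250 bases before to 50 bases after the annotated gene start. Of the 10 genes, 7 were in the table: Yap1, Wwtr1, Tead2, Tead3, Lats1, Lats2 and Ccn1. The window of Ccn1 lies at chr3:145649936-145650235 on the minus strand and holds 1 match, in capitals, which begins 103 bases before the start.
Ccn1: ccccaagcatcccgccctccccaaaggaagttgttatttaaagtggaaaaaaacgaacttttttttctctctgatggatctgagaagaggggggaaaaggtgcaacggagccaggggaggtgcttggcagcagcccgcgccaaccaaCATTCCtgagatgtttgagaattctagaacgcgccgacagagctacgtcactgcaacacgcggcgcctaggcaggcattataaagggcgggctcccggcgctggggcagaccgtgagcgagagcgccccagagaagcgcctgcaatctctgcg

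The same 6 letters occurred near the annotated starts of Yap1, Wwtr1, Lats2 and Tead3, and the matches are shown for comparison as windows of 30 bases with the motif in capitals. The windows lie on the minus strand at chr9:8004720-8004749 for Yap1, chr3:57576029-57576058 for Wwtr1, chr14:57746102-57746131 for Lats2, and chr17:28350970-28350999 for the farthest upstream of 4 Tead3 matches.
Yap1: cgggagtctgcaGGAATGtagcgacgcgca
Wwtr1: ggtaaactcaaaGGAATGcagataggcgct
Lats2: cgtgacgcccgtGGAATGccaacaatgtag
Tead3: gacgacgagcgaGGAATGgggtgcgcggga
A match stood in 5 of the 7 genes, in at least 1 of their windows, and in 16.6% of the 27025 genes in the table. By window it was 7 of 11, some of which overlap, against 14.7% of 32851 windows of 300 bases. Tead2 and Lats1 had no match in their windows. A match is a run of letters and not a measured binding site. The signals of the genes with a match went both ways, Ccn1 below 0 on all 4 probe sets and Tead3 above 0 on its 1 probe set.

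The LATS kinases, which phosphorylate and thereby restrain YAP and TAZ, gave probe sets that disagreed. For Lats1 the brighter probe set, 1435739_at, read 507, 473 and 571 in knockout 1, 26 and 66, against 485, 520 and 588 in wild-type 13, 23 and 57, a difference of -0.04 ± 0.14. The dimmer 1427679_at read 97.0, 93.1 and 112 in knockout and 136, 121 and 175 in wild-type (-0.45 ± 0.26). Its knockout arrays lay just below its wild-type arrays, with signals near the filter of 100.3, while those of the brighter probe set overlapped.

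Lats2 had 6 probe sets, of which 3 were kept. The brightest, 1439441_x_at, read 645, 561 and 416 in knockout 1, 26 and 66, against 542, 411 and 420 in wild-type 13, 23 and 57 (0.22 ± 0.19). That probe set, too, has a name ending in _x_at. The 2 dimmer kept ones pointed the other way, at -0.24 ± 0.30 for 1419678_at and -0.33 ± 0.36 for 1437101_at. These values varied with single arrays: without knockout 66 they were 0.39 for 1439441_x_at, 0.04 for 1419678_at and -0.67 for 1437101_at, and without knockout 26 they were 0.18, -0.43 and -0.11. Knockout 66 was the lowest knockout array in 1439441_x_at and 1419678_at and the highest in 1437101_at, and the genotypes overlapped in all 3. The 3 Lats2 probe sets below the filter had means between 12.3 and 91.6.

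The coactivator genes Yap1 and Wwtr1 differed little between the genotypes on their brightest probe sets. Yap1 read 1692, 2137 and 2197 in knockout 1, 26 and 66, against 2218, 1749 and 2329 in wild-type 13, 23 and 57 on 1448363_at. Each genotype held 1 low array, knockout 1 and wild-type 23, and the difference was -0.06 ± 0.14, with a 95% interval from -0.38 to 0.25. Wwtr1 read 1071, 1094 and 1037 in knockout and 1211, 1124 and 1075 in wild-type on 1417818_at. Knockout 26 lay above wild-type 57, and the difference was -0.09 ± 0.11, with an interval from -0.34 to 0.16. These intervals hold the differences that fit the 3 arrays per genotype, and they are not a limit of detection.

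The remaining probe sets of the coactivators were dim. For Wwtr1, 1417817_a_at stood at 0.02 ± 0.26, and 1437155_a_at at -0.48 ± 0.39, where knockout 66 read 38.6 and the other 5 arrays 101 to 137. Without knockout 66 the difference of 1437155_a_at was -0.06. The Yap1 probe set 1416487_a_at was below the filter, at 74.4 ± 33.3 in knockout and 105 ± 60.9 in wild-type.

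Among the TEAD genes, which encode the DNA-binding partners of YAP and TAZ, no probe set separated the genotypes. Tead1, a regulator of muscle genes, read 1884, 2487 and 2860 in knockout 1, 26 and 66, against 2377, 2658 and 2634 in wild-type 13, 23 and 57 on 1429556_at. The knockout arrays enclosed the wild-type arrays, with an SD of 492 against 156, and the difference was -0.10 ± 0.14. The dimmer Tead1 probe set 1423434_at stood at 0.32 ± 0.27, with knockout 66 the highest array at 192. Tead2 read 505, 479 and 378 in knockout and 514, 596 and 365 in wild-type (-0.09 ± 0.19). In Tead2, knockout 66 and wild-type 57 were the low arrays of their genotypes.

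Tead3 read 212, 234 and 304 in knockout 1, 26 and 66, against 243, 180.1 and 219 in wild-type 13, 23 and 57 on its 1 probe set, 1420593_a_at. The difference was 0.20 ± 0.20, and it was 0.06 without knockout 66, the highest array. Both Tead4 probe sets were below the filter. On 1426337_a_at the means were 60.0 ± 30.3 in knockout and 49.6 ± 32.4 in wild-type, and on 1460683_at they were 39.9 ± 15.0 and 33.1 ± 5.01 (SD, n = 3). In a fit without the filter the difference was 0.28 ± 0.53 on 1426337_a_at, with an interval from -0.91 to 1.47. On 1460683_at it was 0.15 ± 0.38, with an interval from -0.69 to 0.99. These intervals hold differences of either sign, so they do not decide whether Tead4 differed between the genotypes. A limit of detection was not tested.

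**Figure D3:**
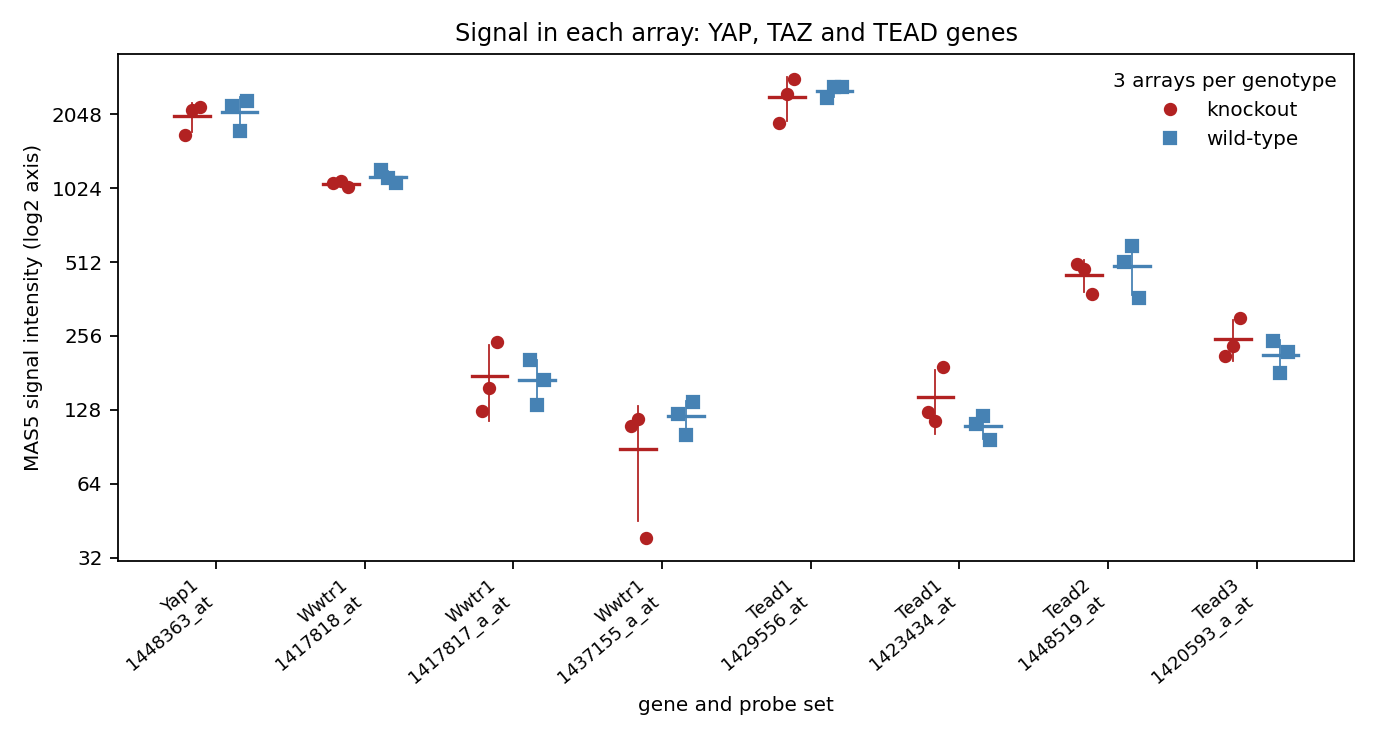
MAS5 signal in each array for the kept probe sets of Yap1, Wwtr1, Tead1, Tead2 and Tead3, on a log2 axis. Circles are knockout and squares wild-type arrays, horizontal bars are means and vertical lines ± 1 SD (n = 3). The genotypes overlap in all 8 probe sets, and in Tead1 1429556_at the knockout arrays, from 1884 to 2860, enclose the wild-type arrays.

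Around these genes, 69 further pathway genes were listed, and 58 had a kept probe set with a single symbol. In the fit over 11648 genes, each represented by its brightest kept probe set, 0 genes passed an adjusted p of 0.05 in limma (0%), and so did 0 of the 58 in either direction, while 585 of all genes had an unadjusted p under 0.05. Of the 58, 26 were above 0 and 32 below, with a median of -0.03 against 0.00 over all genes. Arrays did not overlap in 3 of the 58, 2 lower and 1 higher, against 5.43% and 5.37% of all genes.

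The kinase core and its upstream regulators had 18 measured genes, 7 above and 11 below 0, with a median of -0.06. Fat4, an atypical cadherin upstream of the kinases, read 120.2, 232 and 231 in knockout 1, 26 and 66, against 231, 319 and 306 in wild-type 13, 23 and 57 (-0.56 ± 0.25). Its second kept probe set stood at 0.44, on the other side of 0. Mob1a, the activator that binds the LATS kinases, stood at -0.21 ± 0.12 with its arrays not overlapping, and its other kept probe set at -0.10. The polarity scaffold gene Dlg1 stood at 0.22 ± 0.11 and -0.63 on its 2 kept probe sets. Partners and inhibitors of YAP and TAZ had 12 measured genes, 8 above and 4 below 0. Their median was 0.03 (0.01 after quantile normalization). On the brightest probe sets their differences ran from -0.16 to 0.12. Other kept probe sets reached -0.43 for Btrc, -0.35 for Amotl1 and 0.20 for Ywhaz. The 14-3-3 gene Ywhaz, whose product holds phosphorylated YAP in the cytoplasm, stood at 0.12 ± 0.09 (0.04 after quantile normalization), and the LIM domain genes Limd1 and Wtip at -0.16 ± 0.14 and -0.15 ± 0.17.

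Of 19 other literature targets of YAP, TAZ and TEAD, 15 were measured, 7 above and 8 below 0, with a median of -0.04. Rbms3, an RNA-binding protein gene, had the smallest p in this list. It read 705, 636 and 556 in knockout 1, 26 and 66, against 924, 808 and 899 in wild-type 13, 23 and 57, without overlap (-0.47 ± 0.13, limma adjusted p = 0.958). All 4 kept Rbms3 probe sets were below 0, from -0.47 to -0.01. Ankrd1, a stretch-responsive cofactor of cardiomyocytes and a standard readout of YAP, read 4490, 4912 and 4608 in knockout and 5577, 6627 and 4204 in wild-type (-0.20 ± 0.14). Its wild-type arrays enclosed its knockout arrays, and its second kept probe set stood at -0.32.

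The other named targets overlapped between the genotypes. The growth factor binding protein gene Igfbp3 stood at -0.30 ± 0.20, Fjx1 at -0.30 ± 0.35 and the ligand gene Tgfb2 at -0.16 ± 0.15. Ccdc80, a matrix protein gene, stood at 0.15 ± 0.12, Arhgef17 at 0.18 ± 0.18 and Ctnnal1 at 0.27 ± 0.28, the last with knockout 66 alone high at 282 and the other 5 arrays between 137 and 150.0. Kept probe sets lay on both sides of 0 for Tgfb2 (-0.16 to 0.25), Arhgef17 (-0.78 to 0.18) and Ctnnal1 (-0.06 to 0.27). Ccn1 and Ccn2 were chosen with this contrast in view, so their readings and the median of the other listed targets are not a like comparison. Whether the targets moved together was not tested.

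**Figure D4:**
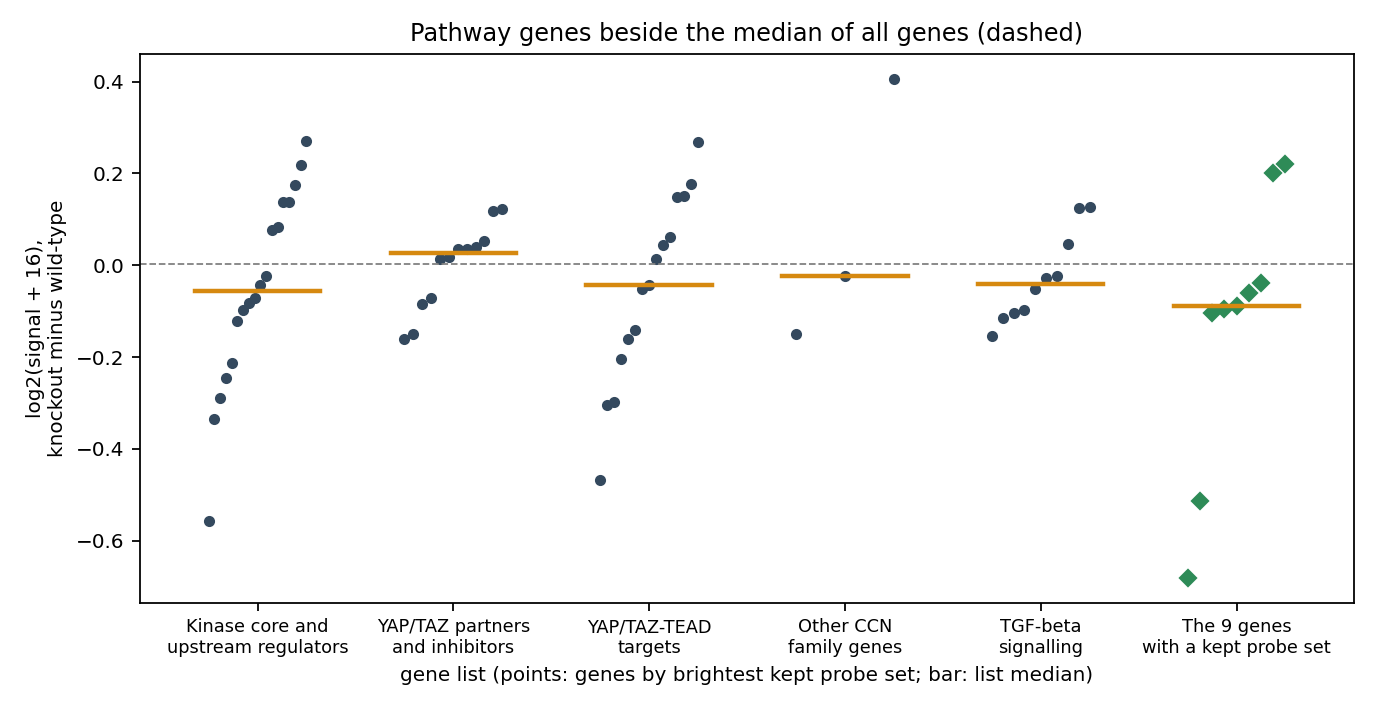
Difference in log2(signal + 16), knockout minus wild-type, for genes of 5 pathway lists (circles) and the 9 genes with a kept probe set (diamonds), each by its brightest kept probe set. Bars are list medians and the dashed line is the median of all 11648 genes. The list medians lie between -0.06 and 0.03, and Ccn2 at -0.68 and Ccn1 at -0.51 are the lowest of the 9 genes.

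The other CCN family genes lay on both sides of 0. Ccn3 read 129.5, 82.3 and 164 in knockout 1, 26 and 66, against 66.5, 87.1 and 114 in wild-type 13, 23 and 57 (0.41 ± 0.34). Ccn4 stood at -0.15 ± 0.16, with a second kept probe set at -0.54, and Ccn5 at -0.02 ± 0.37, or 0.00 after quantile normalization. Ccn6 was below the filter. TGF-beta signalling, which also acts on Ccn2, had 10 measured genes. On their brightest kept probe sets 3 were above and 7 below 0, with a median of -0.04 and a range from -0.15 to 0.13. That range leaves out the ligand gene Tgfb3, which was below the filter and lower in all knockout arrays (see other observations). The second kept probe set stood at -0.69 for Smad2, -0.75 for Smad7 and 0.04 for Tgfb1. The signal transducer gene Smad4 stood at -0.15 ± 0.11, and its 3 kept probe sets lay between -0.20 and -0.10. The receptor genes Tgfbr2 and Tgfbr3 stood at -0.11 ± 0.13 and 0.13 ± 0.14.

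The genes whose signals followed Ccn2 most closely over the 6 arrays were Rtl8c, Doc2g, Atp8b2, Sfrp1 and Fstl1, with Pearson r from 0.974 to 0.990 on log2 values. Predicted genes and RIKEN clones among the 11648 genes were passed over in this ranking. The 5 are the highest of the rest, on 6 points that also share the genotype difference, and they serve as a description. In each of the 5, the highest knockout array was below the lowest wild-type array. The Wnt antagonist gene Sfrp1 read 570, 628 and 685 in knockout 1, 26 and 66, against 908, 799 and 743 in wild-type 13, 23 and 57, and the secreted glycoprotein gene Fstl1 read 4449, 4348 and 4658 against 5126, 4990 and 4746 (-0.14 ± 0.09). Leaving out wild-type 13 and knockout 26, the arrays farthest from the median of Ccn2, gave r from 0.957 to 0.984. Among the described genes, r with Ccn2 on the brightest probe sets was 0.773 for Wwtr1, 0.492 for Ccn1 and between -0.36 and 0.28 for the others.

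**Figure D5:**
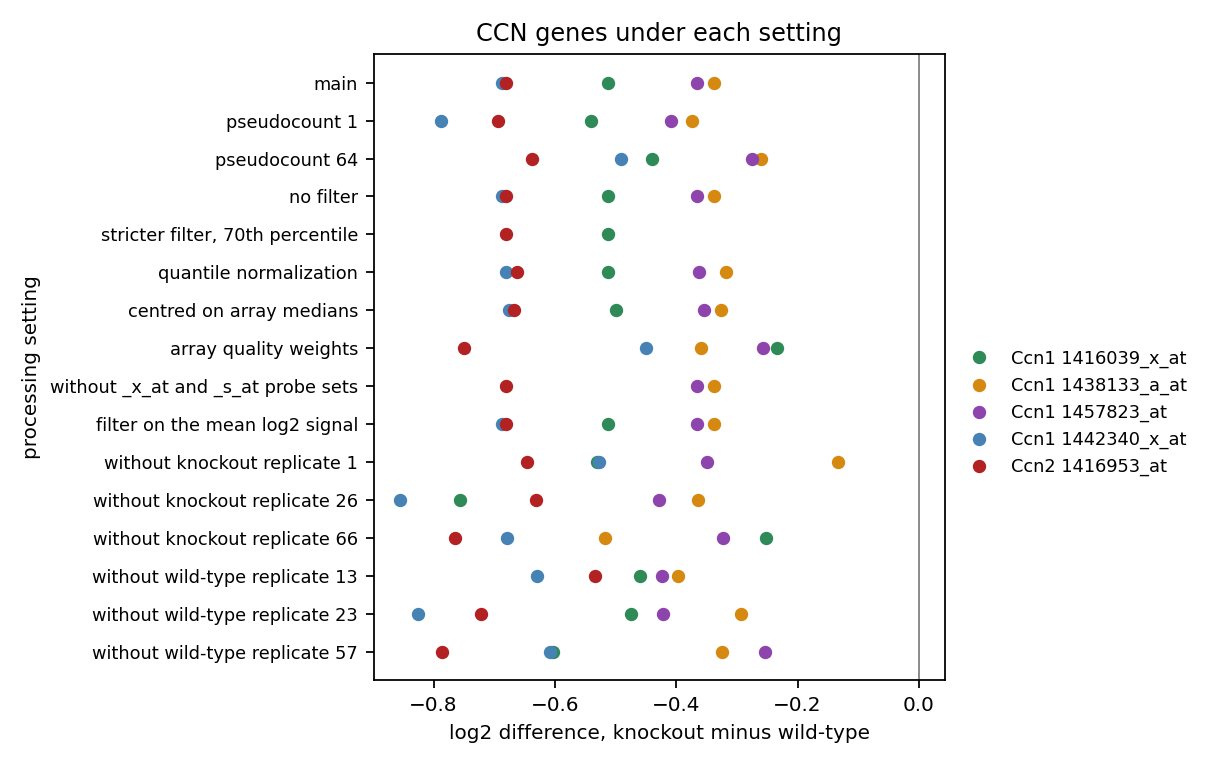
Difference in log2 signal, knockout minus wild-type, of the 5 CCN probe sets under the main processing and 15 of the 18 alternative settings. The eBayes options, which leave the fitted differences unchanged, and the gene means over probe sets are not shown. Points are fitted differences, and a probe set is missing where a setting removes it. All points lie left of 0, and Ccn2 ranges from -0.79 to -0.53.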

How the data were processed

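The table deposited by the authors holds 1 signal intensity per probe set and array, for which the submitters' processing notes name GCOS and MAS5. No source used here states versions, scaling or detection calls. Precision is limited by there being 6 arrays. Total RNA (500 ng per sample, per the labels) had been amplified and biotin-labelled. The platform annotation gave 1 symbol for 34958 probe sets, several for 932 and none for 9211, and 34754 matched a RefSeq gene. Intensities were transformed as log2(intensity + 16) and fitted in limma 3.58.1 under R 4.3.3 (lmFit, eBayes with a trend, two-sided), and calls were made at a Benjamini-Hochberg adjusted p of 0.05 over 22518 probe sets or 11648 genes. The brightest kept probe set stood for a gene. The fit was tested on simulated data. The 10 genes, the pathway and marker lists and the tests were chosen with earlier results of these data known. Named genes were up to 3 per list by smallest p (8 for YAP, TAZ and TEAD targets) and the 5 most like Ccn2. Promoters were searched with Python 3.11.15 and figures drawn with Matplotlib 3.10.9. Alternatives covered pseudocounts, filters, normalization, eBayes options, array weights, probe set types, gene means over probe sets and each array left out.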

Additional observations from a re-analysis of the deposited data

How the results depend on the processing

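Over the 18 alternatives no gene of the pathway lists was called, and the Ccn2 difference lay between -0.79 and -0.53. Of 256 differences of the 18 kept probe sets under alternatives, 243 kept their sign and 0 moved by more than the SD between arrays. The 13 that changed sign belonged to Yap1 1448363_at (highest 0.06, without knockout 1), Wwtr1 1417817_a_at (lowest -0.22, without knockout 66), Tead1 1429556_at, Tead2, Lats1 1435739_at and Lats2 1419678_at. Array quality weights gave 6 probe sets and 8 genes called, with a weight of 0.33 for knockout 66. Leaving out each array gave 0 to 2 probe sets and 0 to 2 genes called, 2 of each without knockout 1 and 2 genes without knockout 66. Kept probe sets of the 10 genes with all knockout arrays lower numbered 4 to 7 without 1 array (7 without wild-type 57) and 1 under the stricter filter, which left 9. Those with all knockout arrays higher numbered 0 to 1 (1 without knockout 26, knockout 66 or wild-type 23). Over all kept probe sets the shares were 9.16% to 13.0% lower and 8.31% to 11.9% higher without 1 array, against 5.56% and 4.96% with all arrays, and 5.40% lower under the stricter filter. Probe sets of the 10 genes lower in all knockout arrays numbered 6 of 18 after quantile normalization and 5 of 18 after centring. Without _x_at and _s_at probe sets they numbered 3 of 15. The shares over all kept probe sets there were 5.67%, 4.14% and 5.60%. With 1 array fewer, non-overlap is easier to reach for any probe set, so nothing is read from the higher counts. Under the stricter filter fewer probe sets were left. The cause of the other changes was not tested. The filter on the mean log2 signal was chosen after seeing the data and changed no count. No paired analysis was possible because the genotypes share no replicate number. Signals near the filter limit what Tead4 and the dim Lats2 probe sets can show.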

Other observations

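Tgfb3, a TGF-beta ligand gene of the pathway lists, was below the signal filter and is named here after its values were seen. It read 63.1, 19.9 and 26.4 in knockout 1, 26 and 66, against 95.0, 129 and 87.7 in wild-type 13, 23 and 57, so all knockout arrays lay lower. In a fit without the filter its difference was -1.26 ± 0.42, and it entered no test over kept probe sets. Nf2, an upstream activator of the LATS kinases, was singled out in the same way for 1 array: knockout 26 read 482, and the other 5 arrays lay between 150.2 and 219. Afp, a liver marker below the filter, read 435 in knockout 1, 65.9 in knockout 26 and 2.90 to 20.9 in the other 4 arrays.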
